A study of Homo sapiens with 16 samples.

Results

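The same 250 stretches of the human genome were carried in a lentiviral vector in 2 lengths, and the RNA they gave and the bases at which that RNA started were compared between the lengths. The members were all inserts named RAND_TSS in the deposited tables, 250 of the 499 inserts of the short lentiviral library and all 250 of the long one. Each name gives a region of the genome build hg38 and a strand. Every insert was carried with 4 barcodes in the short library and 2 in the long one. The members came from 8 of the 16 samples of the series, in 4 groups of 2 replicates: LentiShort TSS-MPRA, LentiLong TSS-MPRA, and LentiShort and LentiLong DNA-seq. All groups were wild-type K562, an established human erythroleukaemia line. The labels name no treatment. TSS-MPRA, a massively parallel reporter assay of transcription start sites, selects capped reporter RNA and joins an adapter to its 5′ end, so that a read gives the insert and the base where transcription began. DNA-seq of the same libraries counts how often each insert was present. The labels do not say that replicates came from separate infections, and p-values then reflect only how far these samples lie apart, possibly for technical reasons. Short and long inserts were separate libraries, so that length cannot be told apart from how each library was made. Endogenous K562 markers could not be read, since only reporter inserts were measured.

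RNA polymerase II starts transcription at a core promoter, the short stretch around the first transcribed base, usually on a purine that follows a pyrimidine. Elements such as the TATA box upstream and the initiator at the start itself place that base, while GC boxes, CCAAT boxes and sites for factors such as GATA1, the main regulator of the erythroid lineage, set how often initiation occurs. CpG islands, which cover most housekeeping gene starts, commonly use many start bases in both directions. A lentiviral vector places the insert in the chromosomes of the cell, so that a reporter is transcribed from chromatin.

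Positions are given in bp from the middle of the named region, with negative values upstream. Short inserts hold 200 positions but had starts recorded only from -127 to 36, and long inserts hold 350 positions with starts recorded from -202 to 111. The 164 positions that both lengths record are called the shared window. The long inserts have 75 further recorded positions upstream of it and 75 downstream, from 37 to 111. The 36 positions from 37 to 72 are part of the short insert too, but no short start is recorded there, so the RNA counts of short inserts omit any start at those bases while the counts of long inserts include them. The upstream positions and those from 73 onwards are in the long insert only. With inserts weighted equally, the share of starts on a purine after a pyrimidine of hg38 was 66.3% at this alignment in both LentiShort replicates. It was 64.7% and 64.3% in the LentiLong replicates and at most 24.7% at any other offset. Of all positions, used or not, 22% were such purines. From 37 to 111 in the long inserts the share of starts was 62.6% and 61.3%. The base used most by an insert was such a purine in 88.4% and 87.6% of 249 short inserts and in 85.3% of 245 long inserts in each replicate.

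The following stretches carry the main patterns: RNA that rose with starts past the shared window, RNA that fell, a start that moved, and a start that stayed. Each line runs 5′ to 3′ on the strand of the insert, from -60 to 111 on hg38, and capitals mark the most used start base and the base before it, in the short inserts and in the long inserts (1 pair where both used the same base). The pairs come from pooled replicates. The short replicates of RNFT2 differed in their main base, and so did the long replicates at chr22:50170148 (100 and 0), at ZXDC (72 and 75) and opposite LNC-LBCS (37 and 38, against 101 when pooled). The stretches are chr5:54325597-54325768 (minus strand, in an intron), chr19:15378564-15378735 (plus strand, ENSG00000268189, a non-coding gene), chr22:50170037-50170208 (minus strand, intergenic), chr3:126475780-126475951 (minus strand, ZXDC), chr6:19804869-19805040 (plus strand, opposite LNC-LBCS), chr9:65385379-65385550 (minus strand, opposite ENSG00000287329), chr12:31959971-31960142 (minus strand, opposite RESF1) and chr2:10254808-10254979 (plus strand, intergenic). For RNFT2 (chr12, plus strand) 30 bases are shown around the start most used in the short insert, chr12:116759949-116759978, and around that of the long insert, chr12:116759993-116760022.
chr5:54325708: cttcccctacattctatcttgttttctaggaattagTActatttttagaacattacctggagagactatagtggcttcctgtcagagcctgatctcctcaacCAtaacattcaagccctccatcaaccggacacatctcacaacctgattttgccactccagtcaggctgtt
ENSG00000268189: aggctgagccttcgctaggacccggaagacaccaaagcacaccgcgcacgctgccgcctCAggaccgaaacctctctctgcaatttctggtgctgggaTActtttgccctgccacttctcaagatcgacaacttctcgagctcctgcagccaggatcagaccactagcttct
chr22:50170148: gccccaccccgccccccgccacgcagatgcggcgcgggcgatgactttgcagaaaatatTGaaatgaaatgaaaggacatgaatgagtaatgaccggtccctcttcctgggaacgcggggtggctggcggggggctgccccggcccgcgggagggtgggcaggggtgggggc
ZXDC: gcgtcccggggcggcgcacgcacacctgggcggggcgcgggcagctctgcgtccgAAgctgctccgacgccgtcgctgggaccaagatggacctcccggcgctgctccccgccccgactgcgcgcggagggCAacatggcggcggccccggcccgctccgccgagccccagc
Opposite LNC-LBCS: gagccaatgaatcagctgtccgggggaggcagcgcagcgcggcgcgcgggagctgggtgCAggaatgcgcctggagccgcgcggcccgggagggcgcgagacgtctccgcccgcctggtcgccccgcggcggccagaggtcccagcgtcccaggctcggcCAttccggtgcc
Opposite ENSG00000287329: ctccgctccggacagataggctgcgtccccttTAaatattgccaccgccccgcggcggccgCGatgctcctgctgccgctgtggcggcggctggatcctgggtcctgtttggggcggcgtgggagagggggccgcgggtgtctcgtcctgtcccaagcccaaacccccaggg
Opposite RESF1: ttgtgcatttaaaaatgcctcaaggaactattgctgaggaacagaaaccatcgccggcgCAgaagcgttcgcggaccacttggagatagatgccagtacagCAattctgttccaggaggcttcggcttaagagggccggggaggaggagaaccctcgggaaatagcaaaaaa
chr2:10254868: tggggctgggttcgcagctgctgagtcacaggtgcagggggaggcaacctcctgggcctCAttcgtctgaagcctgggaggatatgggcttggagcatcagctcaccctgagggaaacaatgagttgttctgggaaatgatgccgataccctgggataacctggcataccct
RNFT2, short start: gggtgggtaggaggGAaggaccatcgggtt
RNFT2, long start: cgtttctgacctctCActctccttgggcgg

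RAND inserts held 4719885 and 5001644 RNA reads and 4352583 and 5033609 DNA reads in the LentiShort replicates. The LentiLong replicates held 14409521 and 16877640 RNA reads and 6104945 and 6929169 DNA reads. No molecular identifiers are recorded, so a limit set from counts covers counting error only. Replicates of every group differed by more than sampling noise (chi-square over degrees of freedom from 48.1 to 229).

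Most inserts had a different level of recorded RNA per DNA at the longer length, in both directions. Of 248 inserts tested, 210 passed an adjusted p of 0.05 (84.7%), 97 higher in the long inserts (39.1%) and 113 lower (45.6%). The test was edgeR's quasi-likelihood interaction of molecule and length with Benjamini-Hochberg adjustment, n = 2 replicates per group. Over 2-fold, 63 inserts rose and 78 fell, and over 4-fold 30 rose and 43 fell. In all 210 called inserts both replicates of one length lay above both of the other, as they did in 232 of the 248. The median difference of all inserts, long minus short, was -0.20 (log2), and scalings moved it from -0.37 to 0.12. Directions are therefore relative to the other inserts of the library. All 97 and all 113 kept their sign under the 5 scalings tried, but the split of the calls turned, to 110 higher and 94 lower on RLE factors, 112 and 99 with DESeq2, and 111 and 89 with limma on barcodes. Counted over the shared window alone, where both lengths record starts, 108 inserts were higher and 104 lower. Of the 97 that rose, 89 were again called higher and 4 lower, and of the 113 that fell, 90 were again called lower and 3 higher. This count was added after the data were seen.

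The order of the inserts changed with length far more than between replicates. As a description across 247 inserts of the same libraries, which are no replicates of each other, levels at the 2 lengths had a Spearman correlation of 0.44, against 0.99 between the replicates of either length. The range from the lowest to the highest levels was also wider in the long inserts, 8.07 log2 units between the outer 5% on each side against 6.31 in the short ones. The median difference between replicates was 0.13 log2 units in the short and 0.15 in the long inserts.

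Over all 248 tested inserts 39.1% were higher and 45.6% lower in the long form. On the main scaling, inserts near annotated gene starts fell somewhat more often than this, and inserts away from them rose more often. Among the 100 tested inserts within 500 bp of a transcript start on the same strand, 34 rose and 52 fell, with a median of -0.37. Of the 52 near a start on the opposite strand only, 15 rose and 33 fell (median -0.72). Of the 96 with no start nearby, mostly in introns or between genes, 48 rose and 28 fell (median 0.50). The median over all 248 inserts was -0.20, and scalings moved it from -0.37 to 0.12. These counts are those of the main scaling, and the difference between the classes was not tested.

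The insert with the largest rise was that of RNFT2, a RING finger membrane protein, with its shared window on chr12:116759837-116760000. Its short form gave 342 and 393 RNA reads over 23618 and 30482 DNA reads, and its long form 129851 and 147846 RNA reads over 49835 and 55237 DNA reads. Levels are scaled RNA per scaled DNA, with counts divided by library sizes adjusted by TMM. They are relative to the other inserts, and 1 is not an equal share of all reads. For RNFT2 this was 0.0192 and 0.0189 in the short and 1.77 and 1.80 in the long replicates. The difference was 6.55 ± 0.14 (log2 ± SE, adjusted p = 6.5e-11 in edgeR's quasi-likelihood test). Both short replicates lay far below both long ones. In the long insert 53.2% and 54.3% of its starts lay downstream of the shared window, with the most used base at 44 (10.5% and 10.9% of starts), a position at which no short insert has a recorded start. The short replicates disagreed on their main start, with 18.7% and 3.82% of starts at 0. Counted over the shared window alone RNFT2 still rose by 6.24.

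Of the 12 inserts with the largest rises, 8 had most of their long starts past the shared window. Among all 244 inserts with enough long starts, 66 had most of them there in both replicates. The ranking counts long starts from 37 to 72, where short starts are not recorded, and so favours inserts with many starts there. For 3 of the 8, at chr5:95723804, MIR223HG and chr20:62485523, over 80% of the starts lay past 72, in bases that only the long insert holds. At chr5:54325708 and ENSG00000287697 between 73.5% and 75.7% lay from 37 to 72, where short starts are not recorded. RNFT2, chr1:36151038 and chr10:68563227 had starts in both stretches. At chr5:54325708, in an intron, RNA per DNA was 1.25 and 0.917 in the short and 40.1 and 35.8 in the long replicates (5.17 ± 0.24), and 94.6% and 94.3% of the long starts lay downstream, with 30.2% and 29.8% at the base at 43. Over the shared window alone the difference was 1.80. The insert at chr20:62485523 rose from 0.116 and 0.117 to 1.62 and 1.59 (3.78 ± 0.14), with 96.1% and 96.3% of starts downstream and the main start at 102. Over the shared window alone its difference was -0.11, which did not pass the test. MIR223HG, the host gene of the myeloid microRNA miR-223, rose from 0.257 and 0.242 to 5.45 and 5.80 (4.50 ± 0.26). It had 94.8% and 95.2% of its long starts downstream, with the main start at 88, and over the shared window it differed by 0.98. ENSG00000287697, a non-coding gene, rose from 0.528 and 0.507 to 11.3 and 11.7 (4.48 ± 0.10), with 93.7% and 94% of starts downstream and the most used base at 42. At chr1:36151038 the rise was 3.74 ± 0.13, at chr5:95723804 it was 4.69 ± 0.23 and at chr10:68563227 it was 3.69 ± 0.26, with between 83.1% and 92.6% of the long starts downstream. No difference over the shared window alone is given for these inserts or for ENSG00000287697.

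The other 4 rose with the same main start at both lengths. The insert at chr7:131072301, in an intron, went from 18.4 and 11.2 to 339 and 394 RNA per DNA (4.73 ± 0.31), on 1074 and 1107 DNA reads in the long libraries. Its most used base was 22 in all 4 samples, and 0.553% and 0.555% of its long starts lay downstream. The intergenic insert at chr20:2525778 went from 7.03 and 5.89 to 210 and 153 (4.79 ± 0.23), on 838 and 1388 long DNA reads, with its main start at 17 in all 4 samples. At chr5:180873708 the rise was 3.32 ± 0.14 with the main start at 31 throughout and 30.8% and 30.5% of long starts downstream, and at chr9:129863080 it was 3.28 ± 0.16 with the main start at -53 throughout.

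The largest fall was at CERS2, which encodes a ceramide synthase of very long acyl chains. Its short insert gave 36190 and 37450 RNA reads over 11553 and 13401 DNA reads, and the long insert gave 0 RNA reads in both replicates over 403 and 289 DNA reads. Set against 3 counts per library, RNA per DNA was at least 695-fold lower in the long insert. Only 1 of its 2 long barcodes had at least 20 DNA reads in both replicates. The bases from 37 to 111 of this insert were 92% G or C.

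At chr22:50170148, an intergenic site, RNA fell from 65011 and 66261 reads in the short to 35 and 121 in the long replicates, while DNA reads were 4808 and 5886 against 7208 and 7989. RNA per DNA was 17.9 and 16.5 against 0.0033 and 0.0102 (-11.30 ± 0.35, adjusted p = 4.9e-10). HNRNPA3, an RNA-binding protein of the spliceosome, fell from 233642 and 266187 reads to 271 and 498 over similar DNA reads (-10.41 ± 0.27). Its RNA per DNA was 16.4 and 15.4 in the short and 0.00857 and 0.0151 in the long replicates. The 2 long HNRNPA3 barcodes differed by 2.27 log2 units, and both lay below all 4 short barcodes. PCGF5, a Polycomb subunit, fell by 8.99 ± 0.27 to 18 and 47 RNA reads. The insert opposite TK2, the mitochondrial thymidine kinase, fell from 0.745 and 0.755 to 0.00463 and 0.00361 (-7.50 ± 0.28).

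ANPEP, a membrane aminopeptidase, fell from 0.25 and 0.26 to 0.00314 and 0.000454 (-7.19 ± 0.53), on 73 and 12 long RNA reads. ZXDC, a zinc finger activator of MHC class II genes, fell from 0.896 and 0.93 to 0.00877 and 0.00612 (-6.92 ± 0.33), and its 2 long barcodes differed by 1.98 log2 units. GORASP1, a Golgi stacking protein, fell from 2.10 and 2.21 to 0.0188 and 0.018 (-6.87 ± 0.15) over nearly equal DNA reads. The insert opposite AFF1 fell by 6.51 ± 0.24, that of RAB12, a small GTPase, by 5.90 ± 0.30, and that of NRBP2 by 6.95 ± 0.20. The intergenic insert at chr4:10170032 differed by -5.73 ± 0.44. In all 12 inserts with the largest falls the measured barcodes of the long insert (1 for CERS2, 2 for the others) lay below those of the short one. The insert at chr4:10170032 held 42.1% G or C in its shared window, while the other 11 held between 61% and 80.5%.

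Where RNA was lost, the starts left in the long insert often lay beyond the shared window. All long starts of the inserts opposite TK2 and at ANPEP, ZXDC, TMEM219 and LARP1 were downstream of it in both replicates, which is what chose TMEM219 and LARP1 for description. For ZXDC the short insert started most often at -4 (17.6% and 17% of its starts), and 53.5% and 43.3% of the 99 and 60 long starts lay at 72. TMEM219 used -6 in the short insert (28.5% in both replicates). The base at 99 took 40.7% and 16.8% of its long starts and was the main start in the first long replicate, while 96 was in the second. Of the 39 inserts that fell over 4-fold and had at least 50 long starts, 22 had over 50% of them downstream in both replicates (56.4%). Of the 30 that rose over 4-fold, 12 did (40%). Among the 107 inserts that changed under 2-fold or were not called, 19 did (17.8%).

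Inserts richest in G and C fell most, read against 39.1% higher and 45.6% lower and a median of -0.20 over all 248. Of the 82 tested inserts with the highest share of G and C in the shared window (from 65.9% to 86%), 17 rose and 54 fell, with a median of -0.89. For the downstream flank the highest class (64% to 92%) had 16 rises and 59 falls with a median of -1.57. The 83 inserts with the lowest downstream share (26.7% to 50.7%) had 38 rises and 27 falls (median 0.26). The middle class had 43 rises and 27 falls (median 0.48). By the shared window the lowest class had 36 rises and 29 falls (median 0.20) and the middle class 44 and 30 (median 0.46). By either measure only the highest class fell more often than it rose. The 43 inserts that fell over 4-fold had a median of 73.3% G and C in the downstream flank, against 50.7% in the 30 that rose over 4-fold. Across 248 inserts the Spearman correlation of the shared G and C share with the RNA per DNA difference was -0.31, given as a description. DNA reads alone moved with this share as well (-0.36 across 250 inserts). Their part in the result was not tested.

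Motifs were sought on both strands of the flanks that only the long insert records, and the counts stand beside 39.1% higher, 45.6% lower and a median of -0.20 over all inserts. GGGCGG, the GC box bound by SP1, was in the downstream flank of 13.6% of the 250 inserts, and of these 34 inserts 7 rose and 23 fell (median -1.57). Falls were more frequent than rises wherever it lay. With GGGCGG upstream, 14 of 49 inserts rose and 31 fell (median -0.88). With it in the shared window, 28 of 99 tested inserts rose and 54 fell (median -0.55). AGATAA, the motif of erythroid GATA1, was in the upstream flank of 4.0% of the 250 inserts. Of those 10 inserts 8 rose and 1 fell (median 1.09). In the shared window the same motif was in 8.4% of inserts, and of these 21 inserts 8 rose and 9 fell (median -0.15). CCAAT upstream, in 8.0% of inserts, went with 5 rises and 13 falls among 20 inserts (median -0.67). In the shared window CCAAT went with 16 rises and 30 falls among 55 inserts (median -0.52), and downstream with 4 and 6 among 14 (median -0.15). TATAAA was upstream in 2.8%, with 2 rises and 2 falls among 7. In the shared window CCGGAAG, an ETS site, was in 10.4% of inserts, and of 25 tested 13 rose and 10 fell (median 0.39). GGGCGG often lies in stretches rich in G and C, and a match describes letters, not binding.

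Few inserts belonged to the gene lists, and their counts stand beside 39.1% higher and 45.6% lower over all inserts. Of 5 genes whose symbols matched the zinc finger list, 1 rose and 4 fell. The 1 that rose, ZBTB8OS (2.12 ± 0.14), matched by its symbol only and is not itself a zinc finger gene. ZXDC, ZSCAN29 (-3.93 ± 0.35), ZSCAN5A (-1.44 ± 0.11) and ZNF646 (-0.34 ± 0.12) fell. The 3 genes of the transcription machinery all fell, at -2.13 ± 0.11 for MED23, a Mediator subunit, -1.02 ± 0.10 for POLR2H, a subunit shared by the nuclear RNA polymerases, and -0.67 ± 0.15 for TAF9B, a TFIID subunit. Both mitochondrial genes rose, NDUFC1 of respiratory complex I by 1.23 ± 0.16 and COX17, a copper chaperone for cytochrome oxidase, by 0.56 ± 0.15. PSMG4, a proteasome assembly chaperone, fell by 3.90 ± 0.17. Of 2 splicing genes HNRNPA3 fell, and SF3B3 differed by -0.48 ± 0.30, which did not pass the test (adjusted p = 0.16 in edgeR's quasi-likelihood test). CDC26 of the anaphase promoting complex differed by -0.19 ± 0.11 and did not pass either. No insert lay at a ribosomal protein or translation factor gene. The medians of all these lists stand beside a median of -0.20 over all inserts.

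RNA and DNA each differed on their own. RNA reads alone differed for 229 of 250 inserts (91.6%), 114 higher (45.6%) and 115 lower (46%). DNA reads alone differed for 222 of 250 (88.8%), 111 higher (44.4%) and 111 lower (44.4%), so that inserts were unequally represented in the 2 libraries. CERS2, for example, had 11553 and 13401 short against 403 and 289 long DNA reads. Among 239 inserts whose 4 short and 2 long barcodes all had at least 20 DNA reads, log2 RNA per DNA spanned a median of 0.82 between the short barcodes and 0.47 between the long ones. The long barcodes all lay above the short ones in 76 of 94 of these inserts that were called higher and below them in 88 of 108 called lower. They lay above in 60 of 61 inserts that rose over 2-fold and below them in 68 of 73 that fell over 2-fold.

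Recorded starts of the long inserts lay downstream of the shared window far more than upstream of it. Weighting 243 inserts equally, 46.4% and 45.7% of the short starts and 30.0% and 29.8% of the long starts lay within 10 bp of the middle. From 37 to 60 the long replicates had 14.4% and 14.6% of their starts, from 61 to 85 they had 12.7% and 13.1%, and from 86 to 111 they had 7.71% and 7.81%. Upstream of -127 they had 0.0749% and 0.0674%. The median insert had 24.7% of its long starts downstream of the shared window, with a median difference of 1.05 percentage points between replicates. In 66 of 244 inserts over 50% of the starts lay there in both replicates, and in 34 under 5% did. From 37 to 72, which the short insert also holds, the median share was 13.5%, and from 73 to 111, which it does not, the median was 5.00%. In both replicates over 50% of the starts lay from 37 to 72 in 28 inserts and from 73 to 111 in 18. The most used base of the whole long insert was downstream in 73 of 244 inserts in both replicates and upstream in none of them. In 45 of the 73 both replicates had it from 37 to 72, and in 23 past 72.

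Inserts near a same-strand gene start had a median of 28.1% of long starts downstream, those near an opposite-strand start 28.2%, and those near neither 21.7%. Of the 78 inserts with the most G and C in the downstream flank and at least 50 long starts, 36 had over 50% of their starts there, with a median of 44.5%. The largest upstream shares were small. At chr1:39205374 the long replicates had 1.14% and 1.56% of starts upstream of the shared window and kept the main start at 0. TRMT11, a tRNA methyltransferase subunit, had 1.08% and 1.11%, and its main start was at -15 in all 4 samples.

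Inside the shared window the long inserts started further downstream on average. The mean start position differed for 181 of 227 inserts with at least 50 starts in every sample (79.7%; limma with Benjamini-Hochberg adjustment, n = 2), 155 further downstream in the long inserts (68.3%) and 26 further upstream (11.5%). The median shift was 4.82 bp downstream. It was 7.39 bp near same-strand gene starts, 3.76 bp near opposite-strand starts and 4.63 bp elsewhere. Without LentiShort replicate 2 only 15 inserts were called further upstream.

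The largest downstream shift was that of the insert opposite RESF1, a gene of retroelement silencing. Its mean start was at -44.5 and -45.2 in the short and at 11.3 and 21.9 in the long replicates (61.4 ± 3.98 bp, adjusted p = 0.001 in limma), on 95 to 192 starts per sample. Its short insert started most often at 0, on 27.4% and 33.6% of starts, and its long insert at 42, on 26.1% and 44.1%. RNFT2 shifted by 34.3 ± 3.37 bp, on 342 and 393 short starts. GORASP1 shifted by 31 ± 1.63 bp, from -12.7 and -12.9 to 16 and 20.2. The shift of 32.9 ± 6.36 bp opposite NBAS rested on 73 and 100 short starts and did not pass without either LentiLong replicate (adjusted p = 0.068 in limma both times).

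Few inserts moved upstream. At chr4:81420807 the mean start went from -23.3 and -24.6 to -50.0 and -47.1 (-24.6 ± 1.30 bp), and the base at -43 took 19.4% and 20.5% of the short and 33% and 32.7% of the long starts. The insert opposite ADNP, a homeobox protein, moved by -13.5 ± 1.27 bp (39.9 bp downstream when all 200 positions of the short insert were compared), and that at chr4:10170032 by -11.4 ± 0.54 bp. The insert at chr5:40802052 moved by -10.9 ± 0.911 bp, ZBTB8OS by -10.4 ± 1.58 bp, and the insert opposite ENSG00000287387 by -9.81 ± 0.428 bp. All 6 were among the inserts whose long replicates both lay upstream of both short ones.

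Inside the shared window most inserts kept the base they used most. Among 185 inserts whose replicates had the same main start there within each length, 141 used the identical base at both lengths (76.2%), and 151 lay within 10 bp (81.6%). The main start inside the window lay over 10 bp downstream in 29 and over 10 bp upstream in 5. Over all 200 positions of the short insert, where it records none past 36, 120 of 184 inserts kept the base and 54 moved over 10 bp downstream and 3 upstream. The whole start profile nevertheless differed. The earth mover distance, the mean number of bp by which starts must be moved to turn one profile into the other, had a median of 7.16 bp between the lengths, against 1.01 bp between LentiShort and 1.23 bp between LentiLong replicates. In 89.9% of the 227 inserts every pair of a short with a long sample was further apart than either pair of replicates.

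Among inserts whose replicates lay under 5 bp apart, the most dissimilar profile was opposite LNC-LBCS, a long non-coding RNA gene. Within the shared window its short insert had 96.9% and 96.8% of its starts within 10 bp of the middle and the long insert 0% in both replicates, on 26243 and 25662 short but only 289 and 110 long starts. Of the starts of the whole short insert 71.5% and 71.4% lay on the base at 0, where the long insert had none. BLCAP, a small membrane protein, moved its main start within the shared window from -3 to 32 (over the whole long insert it was 42 and 32), and its share near the middle from 86.7% and 86.4% to 14.1% and 15.5%. DMXL1, which takes part in assembly of the vacuolar proton pump, went from 92% and 89.4% near the middle to 4.76% and 3.74%. The other direction was seen opposite ENSG00000287329, a non-coding gene. Its short insert started most often at -27 (31.1% and 30%) and its long insert at 2, where the share was 12.3% and 12.4% in the short and 24.8% and 26.7% in the long replicates. The distance between its lengths was 25.3 bp.

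By the same limit on replicates, the most similar profiles were those of OXNAD1, a mitochondrial oxidoreductase, at 0.831 bp, and ELF1, an ETS factor of blood cells, at 0.834 bp. OXNAD1 had 31.3% and 31% of its short and 29.7% and 28.1% of its long starts on the base at 0. The intergenic insert at chr2:10254868, with 65.8% and 64.7% of short and 61.5% and 64.4% of long starts on its main base, was at 0.981 bp. IFT74, a ciliary transport protein, was at 1.71 bp, although 46.5% and 48.6% of its long starts lay downstream of the shared window, with the most used base of the whole insert at 40. A profile could stay while the amount changed. The insert at chr20:2525778, among the 12 largest rises, was at 1.08 bp.

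The share of starts within 10 bp of the middle changed in both directions. It differed for 167 of 227 inserts (73.6%), 81 higher (35.7%) and 86 lower (37.9%) in the long inserts (edgeR's quasi-likelihood interaction of place and length). Besides the insert opposite ENSG00000287329, it rose at SNRK, a kinase of the AMPK family, from 71.3% and 59.3% to 99.6% and 89.4%. At chr19:51785213 it rose from 2.03% and 1.85% to 14.5% and 14%, at chr11:12167158 from 16.2% and 19.8% to 58% and 50.6%, and at chr3:171447535 from 32.5% and 30.2% to 68.1% and 68.2%. Opposite ENSG00000250129 it rose from 6.82% and 5.56% to 27.5% and 25.6%. It fell opposite ADNP from 14.4% and 15.7% to 0% in both long replicates, and at chr15:40368228 from 70.9% and 70.5% to 19% and 5.95%.

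The spread of starts, as the SD of start positions, differed for 123 of 227 inserts (54.2%), 56 wider (24.7%) and 67 narrower (29.5%) in the long inserts. This count rested on both short replicates, since it was 45 without LentiShort replicate 1 and 40 without LentiShort replicate 2.

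The same inserts were also carried at both lengths in an episomal vector, a plasmid that is not integrated. The change of RNA per DNA with length differed between the vectors for 170 of 244 inserts (69.7%), 80 with a larger long-minus-short difference in the lentiviral vector (32.8%) and 90 with a smaller one (36.9%), by the three-way interaction in edgeR's quasi-likelihood test. This split depended on the scaling, with 49 larger and 125 smaller on library totals and 120 larger and 65 smaller on RLE factors. The second episomal short DNA library held 877702 reads, the fewest of the 16 samples.

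LIAS, the lipoic acid synthase, rose with length in the lentiviral vector by 1.41 ± 0.25 and fell in the episomal one by 1.32 ± 0.12, with 3.0 ± 0.26 for the difference between vectors. That difference was fitted over all 16 samples with its own scaling, so the values of the separate vectors do not subtract to it exactly. Its RNA per DNA was 0.422 and 0.339 in the short and 1.21 and 0.809 in the long lentiviral replicates, with the main start at 0 in all 4. ENSG00000268189 rose by 1.97 ± 0.14 in the lentiviral and fell by 0.59 ± 0.20 in the episomal vector (adjusted p = 0.023 in edgeR's quasi-likelihood test). However, 64.1% and 65.5% of its long lentiviral starts lay in bases that the short insert holds but where no short start is recorded. Its lentiviral rise includes these starts, and no difference over the shared window alone is given for it. ZXDC fell by 6.92 ± 0.33 in the lentiviral vector and by 0.90 ± 0.20 in the episomal one. ANPEP fell by 7.19 ± 0.53 and by 1.91 ± 0.20. HNRNPA3 fell in both, by 10.41 ± 0.27 and 8.93 ± 0.15, and RNFT2 rose in both, by 6.55 ± 0.14 and 4.40 ± 0.18.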

How the data were processed

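The tables the authors deposited hold a count of RNA and a count of DNA reads for every barcode of an insert. Per the file headers and values, they also hold a fraction of RNA starts at each position, a deposited signal that sums to 1 over an insert with reads. The submitters' processing notes name STAR 2.7.9a and hg38. The steps from reads to tables are not given in the sources used here. Each table stacks 4 blocks with no sample column, and the first 2 were taken as replicates 1 and 2, since the table's own name lists them in that order. Nothing else supports these numbers. The other 2 blocks of each table were not used.

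The barcodes of each insert were summed. RNA, DNA and RNA per DNA were tested with edgeR 4.0.16 (R 4.3.3, TMM over the 250 inserts, a mean of at least 10 reads in RNA and in DNA, at least 20 DNA reads in every DNA sample for RNA per DNA, adjusted p under 0.05), and start means and log2 of (1 + SD) with limma 3.58.1. DESeq2 1.42.0 and limma on log2((RNA + 1)/(DNA + 1)) of barcodes were alternatives. Fractions times the RNA count gave starts per position. The plan assumed 200 shared positions. Since short starts are recorded at 164, the main window is those 164, and the window of 200 is an added alternative. Start measures needed at least 50 starts in each sample. Inserts were named from GENCODE v44 transcript starts within 500 bp. The tests of RNA per DNA, of the share near the middle and of the mean start were also run on simulated data. There a minority of inserts changed, equally in both directions. In the real data most inserts were called, so those runs cannot vouch for these calls. The inserts named are the 12 largest differences in RNA per DNA in each direction, the 6 largest or most extreme for starts, and the 5 largest for the vectors. For RNA per DNA these were called inserts that averaged 50 or more RNA reads and whose short and long replicates did not overlap. The SE is that of the fitted model. The members and lists were chosen with earlier results of these data known. Scripts ran in python 3.11.15.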

Additional observations from a re-analysis of the deposited data

Results flagged for a closer look

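The change with length differed between the lentiviral and the episomal vector for 170 of 244 inserts, by the interaction of molecule, length and vector in edgeR's quasi-likelihood test with adjusted p under 0.05. Among the inserts with the largest such differences, the long-minus-short difference of RNA per DNA (log2) was larger in the lentiviral vector by 3.0 for LIAS, 2.84 for ENSG00000268189, 2.77 opposite RESF1, 2.60 at chr20:2525778 and 2.56 for ENSG00000287697. The lentiviral minus episomal difference was -5.74 for ZXDC, -4.99 for ANPEP, -4.96 for SCRIB and -3.85 opposite TK2. SCRIB, a cell polarity scaffold, changed by -3.49 in the lentiviral and by 1.76 in the episomal vector. The differences between vectors were fitted over all 16 samples with their own scaling, so the values of each vector do not subtract to them exactly. The long lentiviral insert of CERS2 gave no RNA read, so that no difference between vectors is given for it.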

How the results depend on the processing

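The counts of called inserts stayed within 1.5 times the main count under the alternatives run, except as follows. In the window of 200 positions, an alternative chosen after seeing the data in which short inserts record nothing past 36, the share near the middle was higher in 41 and lower in 145 inserts, the mean start was further upstream in 7, the spread was wider in 150 and narrower in 24, and the median profile distance was 14.8 bp. On library totals 49 inserts had the larger lentiviral length difference. Leaving out 1 replicate in turn gave 196 to 206 calls for RNA per DNA (93 to 101 higher, 97 to 113 lower), 216 to 227 for RNA, 213 to 217 for DNA, 149 to 155 for the share near the middle, 150 to 168 for the mean start (15 to 25 further upstream), 40 to 126 for the spread (18 to 58 wider, 22 to 73 narrower), and 154 to 177 for the vectors. The profile distance ran from 7.05 to 7.42 bp, the count of identical main starts from 145 to 151, and the median share outside the shared window from 24.3% to 25.9%. With 1 replicate left out, more inserts could be compared for main starts. The share of them with an identical base was below that of the main result each time, although the count was higher. The cause of these changes was not tested.

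With the replicate number as a block, 210 inserts were called for RNA per DNA, 228 for RNA, 225 for DNA, 143 for the share near the middle, 174 for the mean start, 118 for the spread and 176 for the vectors. The deviations of same-numbered samples correlated between -0.02 and 0.23 over 243 inserts. Such correlations cannot decide whether the numbers pair the samples. Of the named inserts, chr20:62485523 changed to -0.11 in RNA per DNA over the shared window alone, and the mean start opposite ADNP to 39.9 bp in the window of 200 positions. Falls to very few long reads, as at PCGF5 and ANPEP, are limited by those counts. The mean start opposite NBAS did not pass without either LentiLong replicate, the share near the middle opposite ADNP did not pass within 5 positions, and the mean start opposite ENSG00000287387 did not pass in the window of 200 positions.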
